A study of Mus musculus with 2 samples.

Results

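The genes described here act in the conversion of arachidonic acid into leukotrienes, prostaglandins and other lipoxygenase products. They were chosen by name, with earlier results of these data known. The 10 members are 4 genes of the leukotriene branch (Alox5, Alox5ap, Lta4h, Ltc4s), 2 other lipoxygenases (Alox12, Alox15) and 4 genes of the prostaglandin branch (Ptgs1, Ptgs2, Ptges, Ptgds). A probe was named for 9 of them, among 16390 genes named on the array, each with 1 probe, and none was named for Ptgds. A ratio was given on at least 1 array for 7 members and on both arrays for 5.

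RNA came from bone marrow stromal cells of C57BL/6 mice in 3 states: unirradiated, and at 1 day and at 3 days past a whole-body dose of 9.5 Gy, which ablates blood formation. Each irradiated time point was measured on 1 array with 2 channels, unirradiated RNA in Cy5 and irradiated RNA in Cy3. The series description gives 6 mice in all, and how they were divided or pooled, their age and how stroma was separated from other marrow cells are not given in the sources used here. Every value is therefore a single log2 ratio without replicate error, no test is given, and a gene was counted as different when its ratio was at least 2-fold, a log2 size of 1.

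The labels do not name the numerator of the ratio, and the order of the titles alone would place unirradiated RNA above irradiated RNA. A positive value is taken here to mean more RNA after irradiation, the likely but not established direction. The basis is the p53 targets, which radiation induces. Their median log2 ratio was 1.74 at day 1, where mitotic genes had 0.89, and 1.06 at day 3, where mitotic genes had -2.97. Under the opposite reading every "higher" and "lower" would be exchanged.

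Leukotrienes and prostaglandins are short-lived lipid signals cut from membrane phospholipid as arachidonic acid. In the leukotriene branch Alox5, helped by the membrane protein Alox5ap, makes the unstable leukotriene A4. Lta4h then turns it into the neutrophil attractant leukotriene B4, or Ltc4s joins it to glutathione to give the cysteinyl leukotrienes. In the other branch the cyclooxygenases Ptgs1, mostly constitutive, and Ptgs2, inducible by inflammation, make prostaglandin H2. Ptges and Ptgds convert that to prostaglandins E2 and D2. Neutrophils, monocytes, mast cells and platelets are rich sources of these enzymes, and marrow stroma and endothelium make prostaglandins.

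Promoter sequences are shown for 3 members that stood at least 2-fold higher at day 1: Alox5, which had no ratio at day 3, Ltc4s, still past 2-fold there, and Ptgs2, within 2-fold there. RefSeq promoter windows (GRCm38.p6) were matched for 8 of the 10 members, with Alox5ap and Alox15 unmatched. Each line gives the 250 bases before the annotated start, 5′ to 3′ on the gene's strand, and capitals mark motif matches. Alox5 lies at chr6:116461179-116461428 on the minus strand, Ltc4s at chr11:50238533-50238782 on the minus strand and Ptgs2 at chr1:150099781-150100030 on the plus strand.
Alox5: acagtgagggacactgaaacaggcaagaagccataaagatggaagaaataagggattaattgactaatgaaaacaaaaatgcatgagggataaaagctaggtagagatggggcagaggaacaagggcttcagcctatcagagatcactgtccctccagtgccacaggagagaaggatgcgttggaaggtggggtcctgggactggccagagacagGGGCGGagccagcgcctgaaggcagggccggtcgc
Ltc4s: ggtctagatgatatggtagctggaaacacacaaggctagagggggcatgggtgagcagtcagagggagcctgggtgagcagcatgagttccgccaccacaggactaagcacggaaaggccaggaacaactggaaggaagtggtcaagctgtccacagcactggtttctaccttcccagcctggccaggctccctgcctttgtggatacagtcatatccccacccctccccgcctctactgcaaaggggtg
Ptgs2: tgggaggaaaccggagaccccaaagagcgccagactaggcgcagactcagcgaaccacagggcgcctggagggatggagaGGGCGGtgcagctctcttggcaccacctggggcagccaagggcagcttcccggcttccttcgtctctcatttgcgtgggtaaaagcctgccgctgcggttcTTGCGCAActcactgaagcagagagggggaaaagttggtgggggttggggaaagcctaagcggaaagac

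Both strands were searched for PU.1 (GAGGAAG), C/EBP (TTGCNNAA), AP-1 (TGANTCA), CRE (TGACGTCA), the NF-kB motif and TATAAA, and for the GC box GGGCGG, which was added after the sequences were seen. No 2 matches overlap in the printed windows. The Ptgs2 window holds the C/EBP match TTGCGCAA at positions -69 to -62, counted back from the start, and a GC box at -170 to -165. Of all 32851 promoter windows of this length, 9.56% hold the C/EBP letters and 32.7% the GC box. The Alox5 window holds 1 GC box, at -35 to -30, and the Ltc4s window holds none of the letters searched. Shares for the other motifs were 10.6% for PU.1, 6.75% for AP-1, 1.55% for CRE, 1.41% for NF-kB and 12.4% for TATAAA. Among the windows not printed, Ptgs1 holds the PU.1 letters at -24 to -18 and Ptgds the AP-1 match TGACTCA at -35 to -29. Alox12 holds GC boxes at -55 to -50 and -22 to -17, and Ptges at -53 to -48 and -42 to -37. A match describes letters in a window and is not evidence of binding.

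One day after irradiation Alox5ap, Alox5 and Lta4h of the leukotriene branch and the inducible cyclooxygenase Ptgs2 were far higher, and Ltc4s was 3.33-fold higher. The day 1 array measured 6 members, and 5 of these exceeded 2-fold, each of them upward. Of all 10434 genes measured there, 30.7% were past 2-fold, with 19.6% of the total higher and 11.1% lower. The members' median log2 ratio was 4.15, with all genes centred on 0. Because the members were chosen with earlier results of these data known, their excess over these shares is not independent evidence. By day 3 Ltc4s was the 1 of 6 measured members past 2-fold, again upward. Of all 11404 genes measured there, 14.2% were past 2-fold, with 7.35% of the total higher and 6.85% lower. The median of the members was 0.44. In bulk RNA more cells of a type and more RNA per cell cannot be told apart.

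**Figure D1:**
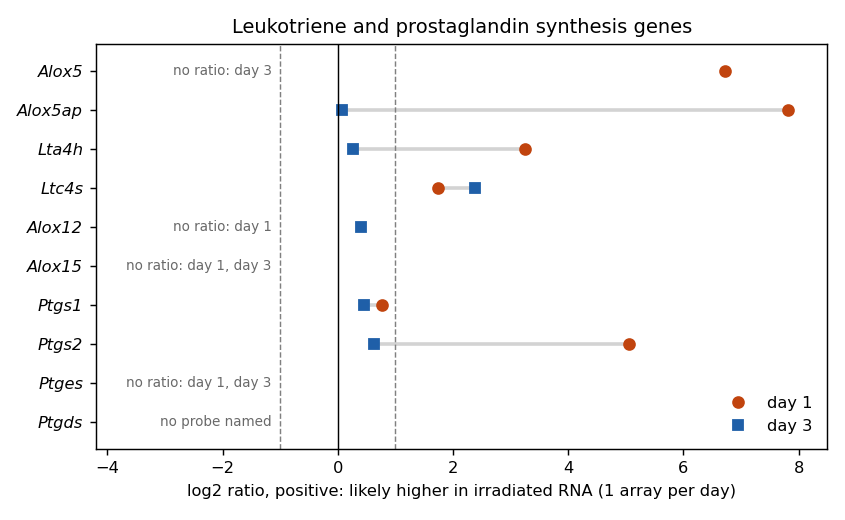
Log2 ratio of each member on the day 1 array (circles) and the day 3 array (squares), 1 array per day and no error bars; dashed lines mark 2-fold, and grey text names missing ratios. Alox5ap, Alox5, Ptgs2 and Lta4h stand well to the right at day 1, and at day 3 only Ltc4s lies beyond 2-fold.

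Alox5ap, which presents arachidonic acid to Alox5, had a log2 ratio of 7.82 at day 1, or 226-fold. It ranked 7 from the top among the 10434 genes of that array. At day 3 its ratio was 0.07, level with the middle of the array at rank 5208 of 11404. The difference between the days was -7.76, which placed it among the largest decreases of the 9800 genes measured on both arrays, at rank 9788 from the top. In the plane of both arrays its 3 nearest genes of 9601 compared were the cytokine gene Il1b (7.36 at day 1, 0.68 at day 3), the neutrophil collagenase Mmp8 (7.25 and -0.50) and the leukocyte actin-bundling gene Lcp1 (6.99 and 0.01), at distances of 0.77, 0.81 and 0.84 on the log2 scale.

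Alox5, the lipoxygenase that opens the leukotriene pathway, had a ratio of 6.72 at day 1, or 105-fold, at rank 33. The enzyme and its helper protein were thus both near the top of the day 1 array. No ratio was given for Alox5 at day 3, so its later course was not measured here. A day 3 ratio was likewise missing for 366 of the 2047 genes past 2-fold upward at day 1.

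Lta4h, a widely expressed zinc enzyme that forms leukotriene B4, was higher by less than Alox5 and Alox5ap. Its ratio was 3.26 at day 1, or 9.55-fold, at rank 347. At day 3 it was 0.26, and the difference between days was -3.00. The 3 genes needed for leukotriene B4 therefore lay between 9.55-fold and 226-fold higher at day 1, and the 2 of them with a ratio at day 3 were within 2-fold.

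Ltc4s, which commits leukotriene A4 to the cysteinyl branch, had a different course. Its ratio was 1.73 at day 1, or 3.33-fold, and 2.39 at day 3, or 5.24-fold. It moved from rank 1034 at day 1 to rank 30 of 11404 at day 3. The difference between days, 0.66, was smaller than the SD between different probes of one gene at day 1 (0.76, pooled over 85 genes) and larger than that at day 3 (0.58, over 116 genes). That spread leaves out differences between animals and hybridisations, so whether Ltc4s differed between the days could not be judged. Among the 4 members past 2-fold at day 1 that were also measured at day 3, it was the 1 still past 2-fold. Among all genes this held for 270 of 1681. Looked at after its values were seen, only 6 of the other genes measured on both arrays stood at least as high as Ltc4s on each. Its nearest genes, also chosen after the fact, were the adipocyte regulator Pparg (1.65 and 2.24), the interferon-induced Ifi44 (1.63 and 2.56) and the endothelial receptor Robo4 (1.57 and 2.27).

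**Figure D2:**
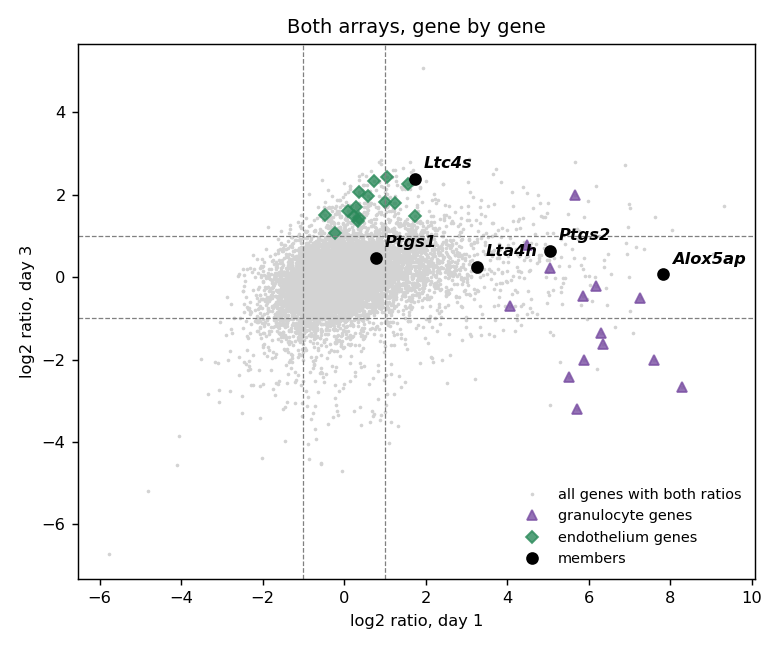
Log2 ratio at day 1 (x axis) against day 3 (y axis) for genes with both ratios (grey), granulocyte genes (triangles), endothelial genes (diamonds) and the 5 members measured on both arrays (black, named); dashed lines mark 2-fold. Alox5ap, Ptgs2 and Lta4h lie to the right near 0 on the y axis, while Ltc4s, at 1.73 and 2.39, lies at the upper edge. The endothelial gene Robo4 (1.57 and 2.27) lies near it, as does the adipocyte gene Pparg (1.65 and 2.24), whose list is not marked here. At day 1 Ltc4s was above 14 of the 15 endothelial genes with a ratio, whose median was 0.36. Both axes share the unirradiated condition.

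Of the other lipoxygenases little could be read. Alox12, the platelet-type enzyme, had no ratio at day 1 and stood at 0.41 at day 3, within 2-fold. Alox15, known from resident macrophages and eosinophils, had no ratio on either array. The sources used here do not give the filter behind missing ratios, so a missing ratio is not a measured absence. Among all named genes a ratio was given for 63.7% at day 1 and 69.6% at day 3.

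In the prostaglandin branch the cyclooxygenases differed from each other at day 1. Ptgs2 had a ratio of 5.05 at day 1, or 33.1-fold, at rank 132. At day 3 it stood at 0.63, or 1.55-fold, a difference of -4.42 between days. Ptgs1 had a ratio of 0.77 at day 1 and 0.46 at day 3, within 2-fold on both arrays but past it on both with ribosomal protein genes as the zero point (1.28 and 1.04). Ptgs2 was also past 2-fold at day 3 under that centring, at 1.21. The difference of Ptgs1 between days, -0.31, was under the spread between probes of a gene on either array. That spread does not measure the error between arrays, so whether Ptgs1 differed between the days could not be judged. The nearest genes to Ptgs2 were Fcer1g (5.09 and 0.67), the signalling chain of Fc receptors, Pla2g7 (4.97 and 0.65), which inactivates platelet-activating factor, and Arhgdib (4.97 and 0.56), a gene of the pan-leukocyte list. Ptges, the inducible prostaglandin E2 synthase, had no ratio on either array. Its probe name is also an older name of Ptges3.

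Between the time points, Alox5ap, Ptgs2 and Lta4h, 3 of the 5 members with both ratios, were at least 2-fold lower at day 3 than at day 1. None was at least 2-fold higher, and Ltc4s was higher by 0.66. Over all 9800 genes, 28.9% differed by at least 2-fold between the days, with 12.1% of the total higher and 16.8% lower at day 3. The members' median difference was -3.00. Each difference carries the error of both arrays, which was not measured, and both arrays have unirradiated RNA in the other channel.

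Granulocyte and pan-leukocyte genes were higher at day 1, as were most measured members, and their part in the members' ratios was not tested. Erythroid genes were lower and platelet genes mixed, as given below. Median differences between days were -7.70 for granulocyte and -5.78 for pan-leukocyte genes. Those of Alox5ap (-7.76), Ptgs2 (-4.42) and Lta4h (-3.00) were also negative, that of Ptgs1 (-0.31) was small, and that of Ltc4s (0.66) was positive. The day 1 array had 18 of 18 granulocyte genes at least 2-fold higher, from Lcn2 at 4.07 to Chil3 at 8.28, with a median of 6.03. All 15 pan-leukocyte genes with a ratio were also higher, from Was at 4.36 to Cd53 at 8.17, with a median of 5.13. Macrophage genes had 7 of 11 at least 2-fold higher, from Axl at -0.43 to Ccr2 at 6.17. At day 3 the granulocyte median was -1.03, with 7 of 14 genes at least 2-fold lower and 1 higher, from Camp at -3.19 to Mmp9 at 1.99. With ribosomal protein genes as the zero point that median was -0.45, with 6 lower and 2 higher. The pan-leukocyte median at day 3 was -0.0037, with 3 of 12 at least 2-fold lower, from Rac2 at -3.09 to Itgb2 at 0.93. It was 0.58 with ribosomal protein genes as the zero point, with 4 higher and 1 lower. Macrophage genes had a day 3 median of 0.82, from Csf1r at -0.20 to C1qb at 1.49, with 4 of 10 higher and none lower, or 7 higher under that centring.

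Set against these lists at day 1, Alox5ap was above 16 of 18 granulocyte genes and Alox5 above 13. Ptgs2 was above 3 of the 18 and differed from the pan-leukocyte median by -0.08 on the log2 scale. Lta4h, Ltc4s and Ptgs1 lay below all 18 granulocyte genes and all 15 pan-leukocyte genes. At day 3 Ltc4s was above all 14 granulocyte, all 12 pan-leukocyte and all 10 macrophage genes with a ratio. The other 5 members with a day 3 ratio lay between 0.07 and 0.63.

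Markers of other cells known to hold these enzymes were measured in part. Among mast cell and basophil genes, 4 of 6 were at least 2-fold higher at day 1, from Mcpt4 at -0.34 to Cpa3 at 5.03. At day 3, 2 of 7 were higher, from Prss34 at -0.33 to Gata2 at 1.87. The defining receptor genes Fcer1a and Ms4a2, named after their missing values were seen, had no ratio on either array. Of eosinophil genes, 3 of 3 were higher at day 1, from Il5ra at 1.27 to Ear6 at 4.73, and the 1 with a ratio at day 3, Prg2, was at -2.47. Platelet and megakaryocyte genes, of the cells that express Ptgs1 and Alox12, ran from Ppbp at -2.01 to Clec1b at 1.61 at day 1, with 2 of 6 higher and 1 lower. At day 3 they ran from Pf4 at -1.39 to Selp at 1.48, with 1 of 6 higher and 3 lower, of which none stayed lower with ribosomal protein genes as the zero point. Lymphocyte genes had 2 of 5 higher and 1 lower at day 1, from Vpreb1 at -1.86 to Nkg7 at 3.64. At day 3, 2 of 6 were lower and none higher, from Vpreb3 at -3.34 to Cd8a at 0.78. Under that centring 4 of 5 were higher and 1 lower at day 1, and 2 of 6 were higher and 2 lower at day 3.

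Stromal, endothelial and adipocyte lists had day 1 medians between -1.14 and 0.49. Mesenchymal genes had a median of -0.66 at day 1, from Pdgfra at -1.22 to Mcam at 0.73, with 4 of 12 at least 2-fold lower. With ribosomal protein genes as the zero point, applied to the marker lists only after the data were seen, that median was -0.15 with none of the 12 lower and 1 higher. At day 3 the median was 0.24, from Col1a2 at -1.37 to Mcam at 1.78, with 2 of 12 higher and 1 lower, or 5 and none under that centring. Osteoblast genes had 5 of 9 lower at day 1, from Pth1r at -1.89 to Omd at 0.09. At day 3, 3 of 10 were lower and 1 higher, from Col1a1 at -1.50 to Omd at 1.45. Under that centring 3 of 9 were lower at day 1 and none at day 3. Endothelial genes had 4 of 15 higher at day 1 (7 under that centring), from Cldn5 at -0.47 to Cdh5 at 1.74, and 15 of 17 at day 3, from Erg at -1.30 to Flt1 at 2.43. At day 3 Ltc4s was above 16 of the 17, and above 8 of the 11 adipocyte genes with a ratio. At day 1 Ltc4s was above 14 of the 15 endothelial genes and all 9 adipocyte genes with a ratio. Adipocyte genes had 8 of 11 higher at day 3, from Cidec at -0.30 to Plin1 at 3.27, and 3 of 9 higher with 1 lower at day 1, from Adipoq at -1.36 to Pparg at 1.65. Under that centring 9 of 11 were higher at day 3, and 4 of 9 with none lower at day 1. Erythroid genes were lower on both arrays, 6 of 7 at day 1, from Car2 at -5.77 to Tfrc at -0.68, and 7 of 8 at day 3, from Car2 at -6.73 to Slc4a1 at -0.78. With ribosomal protein genes as the zero point, 6 of 7 were lower at day 1 and 5 of 8 at day 3. Ratios give no levels, so neither the labelled stromal identity nor the amount of blood cells could be read from them directly.

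**Figure D3:**
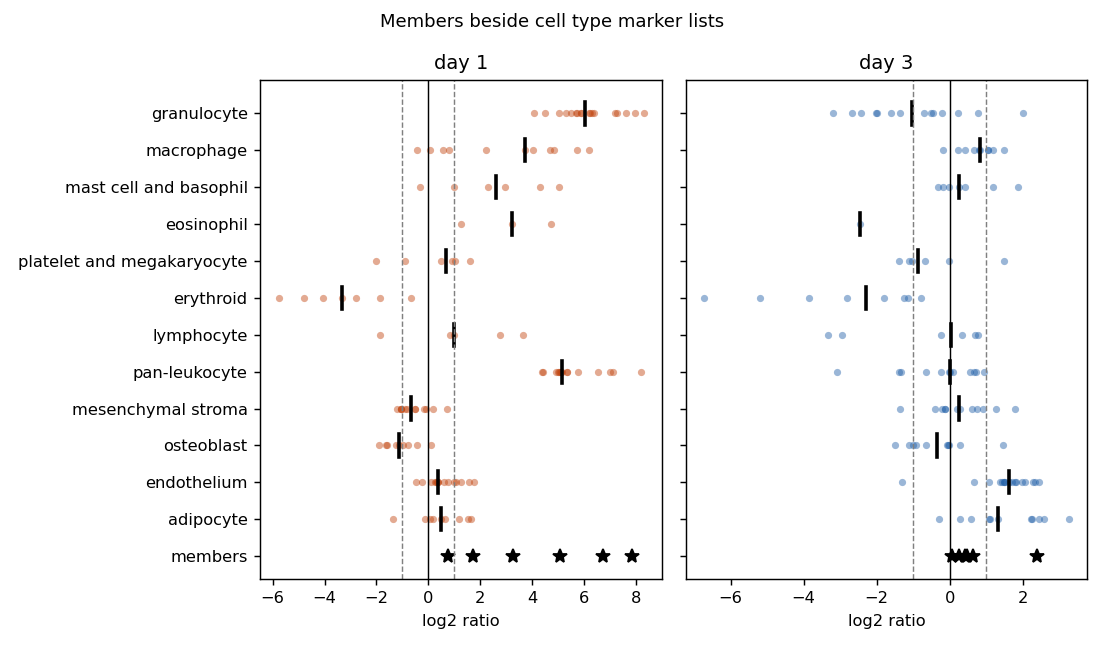
Log2 ratios of single genes (dots) with the median (black bar) of each marker list at day 1 (left) and day 3 (right), and the members as stars in the bottom row; dashed lines mark 2-fold. At day 1 the members span 0.77 to 7.82, reaching the range of granulocyte and pan-leukocyte genes, and at day 3 all but Ltc4s lie near 0.

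The rest of the eicosanoid pathway was read from 66 further genes in 4 groups, of which 58 were named on the array. The day 1 array measured 41 of these, with 11 past 2-fold upward and 8 downward, with a median of -0.15. At day 3, 5 of 44 were higher and 3 lower, with a median of 0.26. With ribosomal protein genes as the zero point, 15 were higher and 4 lower at day 1, with a median of 0.36, and 18 higher and none lower at day 3. That centring raises every gene alike, by 0.51 at day 1 and 0.58 at day 3. Shares of all genes under it were not counted, so these counts have no comparison. The shares past 2-fold with the gene median at 0, 46.3% and 18.2%, stand beside 30.7% and 14.2% of all genes. By direction, 19.6% of all genes were higher and 11.1% lower at day 1, and 7.35% and 6.85% at day 3. The group counts that follow are small and were not tested against these shares.

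Genes listed under release of arachidonic acid did not follow the leukotriene branch as a group. Pla2g4a, the cytosolic phospholipase A2 that feeds both branches, stood at -0.15 at day 1 and -0.30 at day 3. Of 12 genes with a ratio at day 1, Pla2g7 (4.97) and Pla2g4e (1.23) were at least 2-fold higher. Pla2g7 inactivates platelet-activating factor, so its ratio does not speak for arachidonic acid release. The secreted phospholipases Pla2g5 (-1.25) and Pla2g12a (-2.15) were lower. At day 3 Pla2g12a (-1.07) was the 1 of 14 outside 2-fold.

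Among terminal synthases and relatives, 4 of 10 were higher at day 1 and 2 lower. Cotl1, which binds Alox5, was at 3.99, and Tbxas1, the thromboxane synthase of platelets and myeloid cells, at 2.88. Mgst1 (2.42), a glutathione transferase of the same membrane protein superfamily as Ltc4s and Alox5ap, and Akr1c18 (2.03), a reductase, were also higher. Ptges2 (-1.66), a constitutive prostaglandin E2 synthase, and Mgst3 (-2.19) were lower. The last 2 were also the ones past 2-fold at day 3, at -1.19 and -1.06, out of 9. Members of that superfamily thus stood on both sides of 0 at day 1, with Alox5ap at 7.82, Mgst1 at 2.42, Ltc4s at 1.73 and Mgst3 at -2.19. The haematopoietic prostaglandin D2 synthase Hpgds had no ratio on either array, and Ptgis, the prostacyclin synthase of endothelium, was at -0.76 and 0.14.

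Genes of export, uptake and breakdown had 3 of 12 higher and 2 lower at day 1. Cyp4f18, which inactivates leukotriene B4 in neutrophils, was at 4.23, and Ggt1, which trims the glutathione part of leukotriene C4, was at 4.12. Ptgr1, which inactivates leukotriene B4 and prostaglandins, was at 1.72. The dipeptidase Dpep1, which turns leukotriene D4 into E4, was at -1.31 and the epoxide hydrolase Ephx2 at -1.28. At day 3 the 2 of 12 outside 2-fold were Ephx1 (1.93), the microsomal epoxide hydrolase, and Slco2a1 (1.18), the prostaglandin uptake carrier. Hpgd, which inactivates prostaglandins after uptake, was within 2-fold at -0.83 and -0.18.

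Receptors had 2 of 7 higher and 2 lower at day 1. Ltb4r1, the high-affinity leukotriene B4 receptor of neutrophils, was at 5.58, while the low-affinity Ltb4r2 was at 0.14. The prostaglandin E2 receptor Ptger4 was at 1.55, the prostaglandin F receptor Ptgfr at -2.48 and the thromboxane receptor Tbxa2r at -1.10. Ltb4r1 had no ratio at day 3, as with Alox5. At day 3, 3 of 9 were higher and none lower. These were the cysteinyl leukotriene receptor Cysltr1 (1.54), Ptger4 (1.41) and Ptger2 (1.17), and Cysltr1 and Ptger2 had no ratio at day 1. Cysltr2 was within 2-fold at 0.55.

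**Figure D4:**
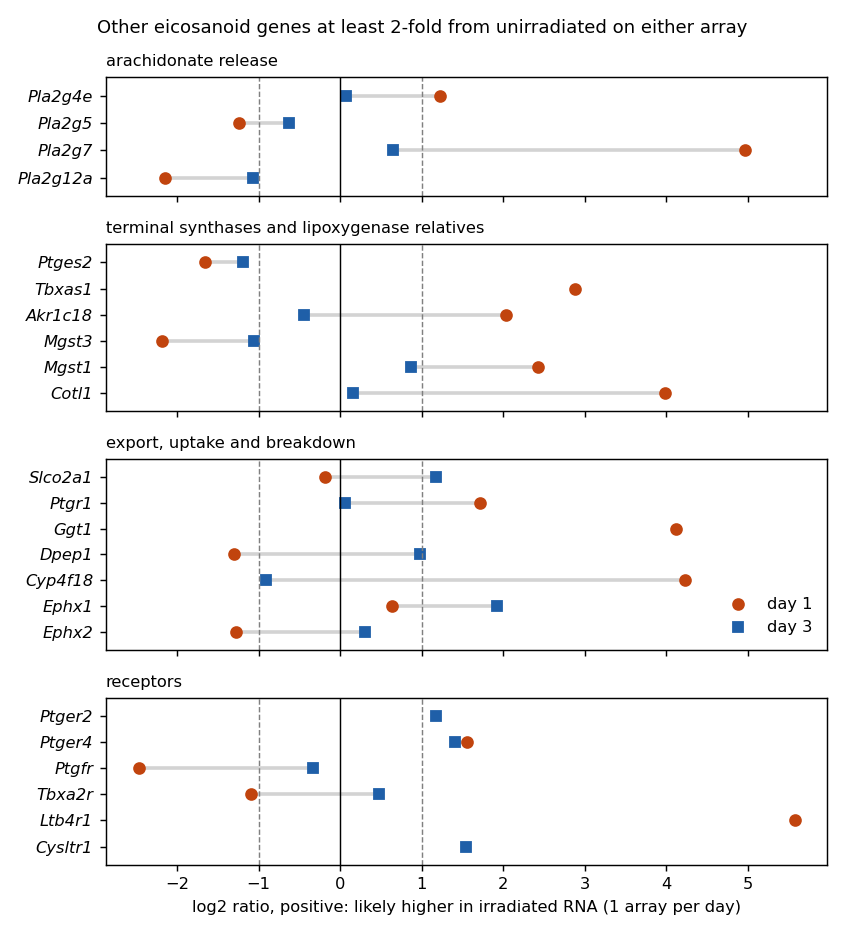
Log2 ratios at day 1 (circles) and day 3 (squares) of the further eicosanoid genes that were at least 2-fold from unirradiated on either array, in 4 groups by role; dashed lines mark 2-fold and a missing symbol is a missing ratio. Ltb4r1, Pla2g7, Cyp4f18, Ggt1 and Cotl1 stand highest at day 1, between 3.99 and 5.58, and at day 3 the genes lie between -1.19 and 1.93.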

How the data were processed

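The values are the authors' deposited log ratios of the 2 channels of each array, read as log2; the base, numerator, scanner, background subtraction, normalisation and filter on missing entries are not given in the sources used here, and folds assume base 2. The arrays were already centred, with probe medians of 0.00035 for day 1 and -0.00013 for day 3. Of 23473 probes, 40.5% lacked a ratio on the first array and 34.3% on the second. With no intensities used here, signal over background was not analysed here, and precision is limited by the number of arrays. Dyes were coupled to amplified amino allyl RNA, per the labels' protocols.

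The platform annotation gave 1 symbol to each of 16631 probes, several symbols to none, and no symbol to 6842. RefSeq genes (GRCm38.p6) were used to update symbols: 12622 were current, 3947 were older names of 1 gene, and 59 ambiguous and 3 unmatched names were kept. Probes were averaged per gene and each array's gene median (-0.0119 and 0.0162) was subtracted, with pandas 2.3.3 in Python 3.11.15. Genes were counted at 2-fold. With 1 array per time point no test was run. The text names all members, every further pathway gene at least 2-fold on either array, the highest and lowest gene of each marker list, and the 3 genes nearest by Euclidean distance to the 2 members with the largest difference between days, and says where a name falls outside this. The pathway genes Pla2g4a, Ptgis, Hpgds, Hpgd, Ltb4r2 and Cysltr2, within 2-fold or unmeasured, and the marker genes Fcer1a and Ms4a2, which had no ratio, were named for their roles after values were seen. Members and lists were chosen with earlier results of these data known. The alternatives were 4 other settings of centring and gene set, other fold limits, another choice of probe, and no older names.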

Additional observations from a re-analysis of the deposited data

Results flagged for a closer look

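Opposite signs on the 2 arrays, with at least 1 value past 2-fold, were seen for 6 of the 43 members and pathway genes measured on both, and for 963 of all 9800 genes. No member was among the 6, and no difference was tested. Positive at day 1 and negative at day 3 were Cyp4f18 (4.23 and -0.91) and Akr1c18 (2.03 and -0.44). Negative at day 1 and positive at day 3 were Dpep1 (-1.31 and 0.97), Ephx2 (-1.28 and 0.30), Tbxa2r (-1.10 and 0.48) and Slco2a1 (-0.19 and 1.18). With ribosomal protein genes at 0, applied to these genes only after the data were seen, Cyp4f18, Dpep1 and Tbxa2r kept this pattern. The other 3 lost it: Slco2a1 stood at 0.32 and 1.76, Akr1c18 at 2.54 and 0.14, and Ephx2 at -0.77 and 0.88.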

How the results depend on the processing

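No member's log2 ratio or difference changed sign under the 6 alternatives that recompute it. Sign changes of the ratios were largely excluded in advance, so this is little evidence of robustness. All member ratios were positive, and the density peak and ribosomal zero points raised them. With 1 probe per member, the probe and name settings acted only through the array median. The counts of members past 2-fold at day 1 and between days stayed within 1.5 times. Setting the density peak to 0 shifted day 1 by 0.19, and setting ribosomal protein genes to 0 shifted day 1 by 0.51 and day 3 by 0.58. These shifts applied to all genes alike, and shares of all genes past 2-fold under them were not counted. The members' day 1 median became 4.35 with the density peak at 0, 4.66 with ribosomal protein genes at 0 and 3.31 over genes measured on both arrays, where Alox5 drops out. The day 3 median became 1.02 with ribosomal protein genes at 0, and the median difference between days -3.19 with the density peak at 0. Members past 2-fold at day 3 numbered 3 with ribosomal protein genes at 0 (Ltc4s, Ptgs2 and Ptgs1), and 2 at a 1.5-fold limit, against 1. Pathway genes past 2-fold at day 3 numbered 18, all higher, with ribosomal protein genes at 0, 22 at 1.5-fold and 1 at 3-fold, against 8. At day 1 the pathway total stayed within 1.5 times, but its split of 11 higher and 8 lower became 15 and 4 with ribosomal protein genes at 0 and 9 and 4 at 3-fold. No paired analysis was possible because each time point had 1 array, and for the same reason no replicate could be left out.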
